A study of Gallus gallus with 24 samples.

Results

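Of the 24154 genes in the table, 35 rose steeply between embryonic day (E) 5 and E9.5 in both gonads of the female chicken embryo. The set was chosen on raw CPM, the count of a gene per 1000000 counts of its library. A member had a mean of at least 5 CPM at E9.5 on each side, and that mean was at least 16 times the E5 mean of the same side plus 0.1 CPM. The rule was met on the left by 59 genes, on the right by 109, and on both sides by 43, of which 8 were set aside by name (CYP19A1, CYP17A1, HSD17B1, FOXL2, ZP3, SMC1B, HBBA and HBE1). Another 16 genes met it on the left alone and 66 on the right alone. Of the 35 members, 31 carry a gene symbol and 4 a LOC number.

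The left and the right gonad were collected separately from female Leghorn embryos at E5, E6.5, E8 and E9.5, and polyadenylated RNA was sequenced in 3 libraries per side and stage, 24 in all. The labels give Leghorn as the genotype of all 8 groups and name no treatment, so stage and side are the only differences that they give. Nothing in the labels says that replicate libraries came from different embryos, so p-values here reflect only how these samples spread, and that spread may be technical. The E5 and E9.5 libraries chose the members, so every value at those stages is a description. Tests were made between E6.5 and E8 and between the sides at these stages, and the rule did not use the libraries compared. The gene filter, the library scaling and the estimate of spread came from all 24 libraries, the E5 and E9.5 ones included.

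In female birds the left gonad grows into the ovary, with a thickened cortex around a medulla, while the right one stays small and regresses. The medulla of both gonads produces steroid hormones in the embryo. Steroid synthesis starts when STAR carries cholesterol into the mitochondrion, where CYP11A1 cuts its side chain to give pregnenolone, and the 3-beta-hydroxysteroid dehydrogenase encoded by HSD3B1 turns pregnenolone into progesterone. CYP17A1, HSD17B1 and aromatase (CYP19A1) then lead on to androgens and estrogens. In the adult gonad these steps are driven by the gonadotropins, which act through the receptors encoded by FSHR and LHCGR.

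Library totals ran from 15078282 to 19970859 counts. The label of gonad matched its markers, since the gonadal transcription factor GATA4 stood between 210 and 607 CPM, LHX9 between 73.1 and 542 CPM and NR5A1 between 19.6 and 207 CPM over the 24 libraries. Other tissues were present to different degrees. CUBN, a marker of the mesonephros (the embryonic kidney beside the gonad), ranged from 8.78 to 786 CPM. Liver albumin (ALB) reached 171 CPM in E6.5 left replicate 3 and 981 CPM in E8 right replicate 3 and was at most 10.2 CPM in the other libraries, and E6.5 left replicate 3 also held muscle transcripts (MYL1 22.7 CPM, at most 3.43 elsewhere). These values are given below beside the members they touch.

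On the log2 scale, most of the rise of the set had taken place by E8. The median member rose by 2.46 (left) and 2.58 (right) on the log2 scale of mean CPM plus 0.1 from E5 to E6.5, by 1.98 and 2.16 from E6.5 to E8, and by 0.88 and 0.90 from E8 to E9.5. The median ratio of the E9.5 mean to the E5 mean plus 0.1 was 39.9 on the left (16.6 to 190) and 41.8 on the right (16.4 to 197). The onset of a gene was taken as the first stage at which it reached the midpoint of its log2 rise on that side. By this measure 13 members had their onset at E6.5 on both sides, 16 at E8 on both sides, none at E9.5 and 6 at different stages on the 2 sides. The split depends on the measure: 5 members had their onset at E6.5 on both sides when it was the first stage with 25% of the E9.5 mean, and 30 when it was the first stage with a mean of 1 CPM. In bulk tissue such as this, more cells of a type and more RNA per cell cannot be told apart.

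**Figure D1:**
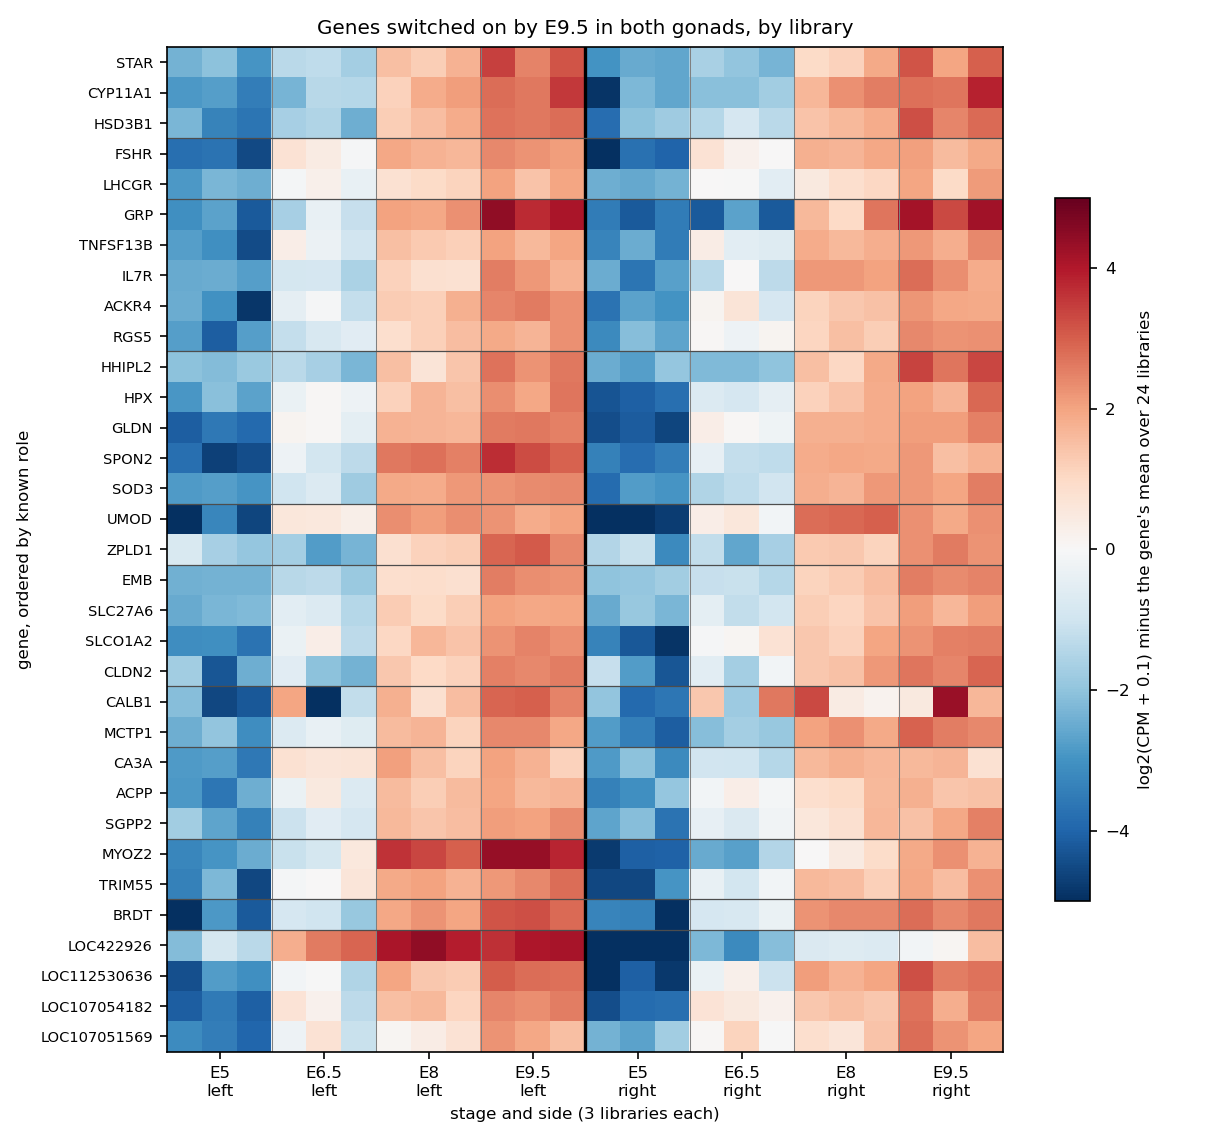
Each row is 1 of 33 of the 35 genes, grouped by known role, and each column is 1 of the 24 libraries, with left gonads on the left. Colour is log2(CPM + 0.1) minus the gene's mean over all libraries, and differences beyond 5 either way take the end colour. Nearly all rows run from blue at E5 to red at E9.5 on both sides, LOC422926 and MYOZ2 are redder on the left, and CALB1 varies from library to library.

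Between E6.5 and E8, 33 of the 35 members rose in the left gonad and 32 in the right, and none fell (edgeR's quasi-likelihood test, adjusted p under 0.05). Of all 16694 genes tested, 9.34% were called higher and 10% lower at E8 in the left gonad, and 10.8% higher and 9.72% lower in the right. The E8 libraries lay above all E6.5 libraries for 33 and 32 members, beside 16.8% and 18.2% of all genes, and below them for none, beside 18.9% and 21.1%. The members' median log2 change was 2.05 on the left and 2.21 on the right, beside 0.01 and 0.04 over all genes. Genes picked for a rise between E5 and E9.5 are favoured to rise in the middle of that interval, so these counts show when the rise took place and not that the set is unusual. CALB1 and LOC107051569 did not pass on either side.

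Some of these calls rested on single libraries. On the left, CA3A lost its call without E6.5 left replicate 2, E6.5 left replicate 3 or E8 left replicate 1 (adjusted p = 0.083, 0.055 and 0.16). On the right, LOC107054182 lost it without any 1 of the 6 libraries (0.058 to 0.10). ACPP lost it without E6.5 right replicate 1 or E8 right replicate 3 (0.068 and 0.11). SLCO1A2 lost it without E6.5 right replicate 1, E6.5 right replicate 2 or E8 right replicate 3 (0.066, 0.059 and 0.082), and ACKR4 without E6.5 right replicate 1 or 3 or E8 right replicate 2 or 3 (0.058 to 0.10). The other members named here kept their calls without each library in turn. With the level of the adrenal and chromaffin list as a covariate, LHCGR, TRIM55 and LOC422926 lost their left calls (0.061, 0.081 and 0.085), with log2 changes of 0.99, 1.39 and 1.34 in place of 1.03, 1.72 and 1.69, and with STAR and CYP11A1 taken out of that list they kept them.

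The 3 steroid synthesis genes were late. STAR stood at 25.2, 26.1 and 19.4 CPM in the left gonad at E6.5 and at 180, 152 and 213 CPM at E8. In the right gonad it went from 20.9, 16.4 and 12.7 CPM to 124, 143 and 241 CPM. Every E8 library was thus above every E6.5 library on its side, and the fitted change was log2 2.98 ± 0.32 (SE) on the left and 3.39 ± 0.33 on the right (adjusted p = 3.9e-06 and 1.3e-06). STAR went on to 690, 356 and 566 CPM on the left and 569, 250 and 507 CPM on the right at E9.5.

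CYP11A1 stood at 8.21, 15.9 and 15.5 CPM in the left gonad at E6.5 and at 92.5, 153 and 177 CPM at E8. In the right gonad it moved from 9.67, 9.76 and 12.5 CPM to 132, 205 and 247 CPM. The groups did not overlap, and its change on the right, log2 4.24 ± 0.47 (adjusted p = 5.5e-06), was beside 3.45 ± 0.45 on the left (adjusted p = 3.2e-05), a difference between the sides that did not pass (adjusted p = 0.87). HSD3B1 rose from 19.9, 22.3 and 11.8 to 152, 185 and 231 CPM on the left (log2 3.43 ± 0.38, adjusted p = 5.6e-06) and from 23.7, 35.2 and 24.9 to 171, 199 and 230 CPM on the right (2.89 ± 0.37, adjusted p = 2.8e-05). At E6.5 these 3 genes had reached between 2.75% and 6.0% of their E9.5 mean, and at E8 between 33.8% and 50.3%. None of the 3 passed between left and right at E6.5 or E8, with adjusted p from 0.41 to 0.92. All left libraries were below all right ones for HSD3B1 at E6.5 (log2 -0.67 ± 0.36, adjusted p = 0.41).

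The gonadotropin receptor genes were earlier in their rise, with onset at E6.5 on both sides by the same measure. FSHR, the receptor for follicle-stimulating hormone, stood at 2.47, 2.64 and 1.43 CPM in the left gonad at E5, at 56.9, 46.0 and 33.5 CPM at E6.5 and at 133, 116 and 110 CPM at E8. The right gonad held 0.842, 2.52 and 2.06 CPM, then 57.4, 40.0 and 35.3 CPM, then 119, 113 and 132 CPM. The 2 sides overlapped at each of these stages, and the left-right difference was log2 0.01 ± 0.22 at E6.5 and -0.07 ± 0.22 at E8. At E9.5 FSHR stood at 185, 164 and 147 CPM on the left and 146, 106 and 131 CPM on the right, without overlap and with a ratio of the means of 1.29. The rise from E6.5 to E8 was log2 1.43 ± 0.23 on the left and 1.51 ± 0.23 on the right (adjusted p = 0.00021 and 0.00013).

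LHCGR, the receptor for luteinizing hormone, stood at 36.6, 46.5 and 30.3 CPM on the left at E6.5 and at 66.2, 76.4 and 83.9 CPM at E8 (log2 1.03 ± 0.24, adjusted p = 0.0052). On the right it stood at 39.8, 38.4 and 27.1 CPM and then at 54.4, 70.6 and 80.0 CPM (1.02 ± 0.24, adjusted p = 0.0055). The E5 mean of LHCGR was 6.77 CPM on the left and 7.04 CPM on the right. FSHR and LHCGR had reached between 26.2% and 34.6% of their E9.5 mean at E6.5. They lie close together, with 3 genes between them in the RefSeq annotation of the later build GRCg7b.

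**Figure D2:**
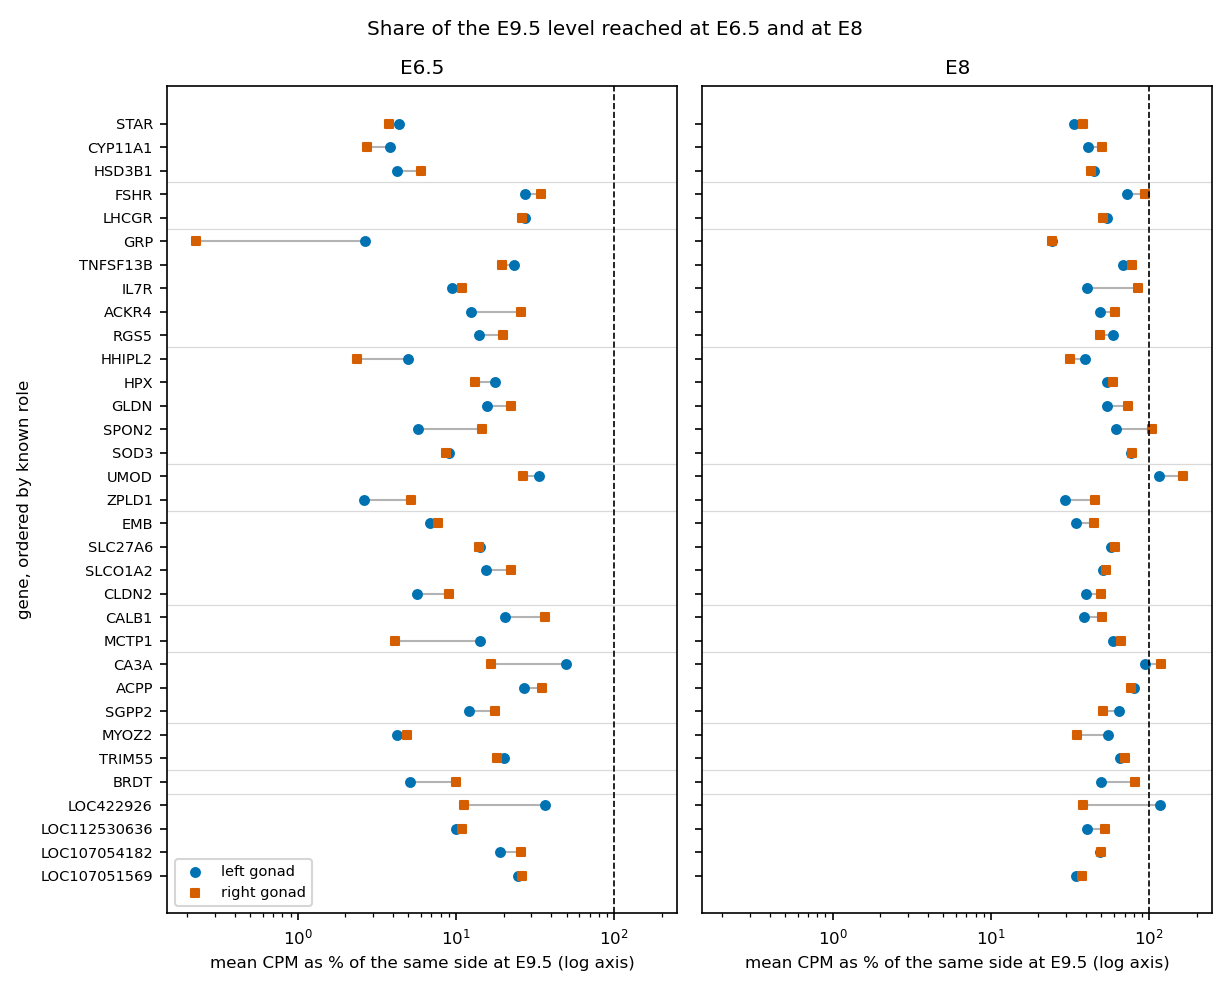
The mean CPM of each of 33 of the 35 genes at E6.5 (left panel) and E8 (right panel) is shown as a percentage of its mean at E9.5 on the same side, on a log axis, with circles for the left and squares for the right gonad and a dashed line at 100%. STAR, CYP11A1 and HSD3B1 lie between 2.75% and 6.0% at E6.5 while FSHR and LHCGR lie between 26.2% and 34.6%, and UMOD passes 100% at E8 on both sides.

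The wider steroid pathway gives the setting for these members. Of 24 steroid synthesis genes tested, 11 were higher and none lower at E8 than at E6.5 in the left gonad, with a median log2 change of 0.35, and 9 were higher and 1 lower in the right gonad, with a median of 0.27. Without the 3 members the counts were 8 and 6 of 21 higher, beside 9.34% and 10.8% of all genes tested. These 21 still hold CYP17A1, CYP19A1 and HSD17B1, so their counts are not independent of the rule. CYP17A1 (log2 3.15 ± 0.25 left, 3.38 ± 0.25 right), CYP19A1 (2.98 ± 0.36 and 2.76 ± 0.35) and HSD17B1 (1.92 ± 0.20 and 1.87 ± 0.19), which meet the rule of the set but were left out of it by name, rose on both sides. The electron donors POR (0.63 ± 0.11 and 0.53 ± 0.11) and FDXR (0.44 ± 0.14 and 0.50 ± 0.14) also rose, and FDX1, the partner of CYP11A1, had log2 changes of -0.29 ± 0.22 and -0.28 ± 0.22 that did not pass. The onset of CYP19A1 and HSD17B1, which act after the 3 members in the pathway, was E6.5 on both sides: mean CYP19A1 went from 0.979 CPM at E5 to 266 at E6.5 on the left and from 0.554 to 297 on the right. The onset of CYP17A1 was E8 on the left and E6.5 on the right. Of 23 ovarian somatic genes, with FSHR as the single member among them, 8 were higher and 1 lower at E8 on the left and 11 and 2 on the right. Of all genes tested, 9.34% were higher and 10% lower on the left, and 10.8% and 9.72% on the right. Without FSHR the ovarian counts were 7 and 10 of 22 higher. The ovarian list also holds CYP19A1, HSD17B1 and FOXL2, which meet the rule, so its counts with or without FSHR are not independent of the rule. FOXL2, a transcription factor of ovarian supporting cells that was also left out by name, was higher on both sides (1.15 ± 0.27 and 1.66 ± 0.27).

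The adrenal gland also expresses STAR, CYP11A1 and a 3-beta-hydroxysteroid dehydrogenase, and some adrenal markers differed between the sides. MC2R, the corticotropin receptor of the adrenal cortex, stood at 1.99, 1.82 and 2.35 CPM in the left gonad at E8 and at 0, 0.311 and 0.11 CPM in the right. Its partner MRAP stood at 0.121, 2.20 and 4.18 CPM on the left and at 0, 0.0623 and 0 CPM on the right. The summed level of 15 adrenal and chromaffin genes other than members was 805 to 2042 CPM on the left and 262 to 270 CPM on the right. The chromaffin gene CHGA alone gave 136 to 524 and 25.4 to 42.9 CPM of it, so the sum says little about the adrenal cortex. STAR, CYP11A1 and HSD3B1 overlapped between the sides at E8, with log2 differences, left over right, of 0.06 ± 0.29, -0.51 ± 0.40 and -0.13 ± 0.34. The part of adrenal tissue in these levels was not tested. CYP21A1, an enzyme of corticosteroid synthesis, stood between 5.65 and 22.7 CPM over all libraries at E8 and E9.5 and did not pass in either gonad between E6.5 and E8.

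Secreted and signalling genes came on at various times. GRP, which encodes gastrin-releasing peptide, was close to absent at E6.5 on the right. It stood at 0.490, 1.32 and 0.731 CPM on the left at E6.5 and at 0, 0.191 and 0 CPM on the right, which is 42 counts against 3. At E8 it stood at 7.36, 6.92 and 9.04 CPM on the left and 5.53, 3.55 and 11.6 CPM on the right, and at E9.5 at 40.3, 24.4 and 31.3 CPM and 33.3, 18 and 33.6 CPM. The ratio of CPM between E8 and E6.5 on the right was 112, with a 95% exact counting interval of 37.9 to 544 that covers counting error only, and on the left it was 9.31 (6.76 to 13.1). Both rises passed (adjusted p = 3.7e-06 and 0.00014).

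SPON2, a secreted matrix protein, rose by log2 3.46 ± 0.27 on the left and 2.89 ± 0.26 on the right between E6.5 and E8 (adjusted p = 1.3e-07 and 6.5e-07). SOD3, the extracellular superoxide dismutase, rose by 3.13 ± 0.24 and 3.21 ± 0.24 (adjusted p = 1.3e-07 and 4.4e-08), from between 2.81 and 6.08 CPM to between 31.6 and 44.4 CPM over both sides. HHIPL2, named for its likeness to the hedgehog-interacting protein, rose by 3.03 ± 0.30 and 3.79 ± 0.31. GLDN, an extracellular protein known from the nodes of myelinated nerves in mammals, came on early and with little spread: it stood at 41.1, 39.4 and 26.4 CPM on the left at E6.5 and at 125, 123 and 118 CPM at E8. TNFSF13B, the B cell survival cytokine BAFF, likewise had its onset at E6.5, with between 4.78 and 11.9 CPM over the 6 libraries, and rose by 1.59 ± 0.32 and 2.05 ± 0.32 to E8. Its level at E8 was 21.1 to 26.5 CPM on the left and 29.0 to 34.2 CPM on the right, a difference that did not pass (adjusted p = 0.31), while the summed level of 23 macrophage and leukocyte genes was 225 to 243 and 292 to 355 CPM. The part of leukocytes in that value was not tested.

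HPX encodes hemopexin, a heme-binding plasma protein made by the liver. It stood at 43.3, 57.1 and 45.2 CPM on the left at E6.5 and at 34.1, 30.6 and 39.3 CPM on the right, and at 120, 175 and 154 CPM and 122, 146 and 196 CPM at E8. The libraries with liver transcripts, E6.5 left replicate 3 and E8 right replicate 3, held the middle and the highest HPX value of their groups. HPX also reached 220, 176 and 396 CPM on the right and 276, 206 and 343 CPM on the left at E9.5, where ALB was at most 8.15 CPM. The rise from E6.5 to E8 was log2 1.66 ± 0.26 on the left and 2.21 ± 0.27 on the right (adjusted p = 0.00021 and 1.6e-05). At E9.5 the summed level of 25 liver and plasma protein genes other than HPX was 633 to 886 CPM on the left and 1144 to 3180 CPM on the right. APOA1 alone gave 566 to 829 and 729 to 1848 CPM of it, so the sum says little about the other liver genes. The liver gene FGA stood there at 0.0551 to 0.160 CPM on the left and 0.573 to 3.20 CPM on the right. The part of liver tissue in the HPX level was not tested.

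UMOD and ZPLD1 both encode proteins with a zona pellucida domain, the fold of egg coat proteins. UMOD is uromodulin of the kidney tubule in mammals, and in the RefSeq table the chicken symbol carries the synonym ZPD, the name of a glycoprotein of the avian egg coat. It stood at 0.123, 1.48 and 0.518 CPM on the left at E5 and at 0.259, 0.120 and 0.464 CPM on the right. At E6.5 it stood at 22.2, 21.9 and 18.3 CPM and at 18.9, 22.0 and 13.6 CPM, and at E8 at 75.9, 64.0 and 76.3 CPM and 105, 111 and 120 CPM. All right libraries were above all left ones at E8, but the difference did not pass (log2 -0.69 ± 0.24, adjusted p = 0.063). UMOD was among the few members that peaked before E9.5, where it stood at 70.6, 54.9 and 60.8 CPM on the left and 73.2, 56.7 and 74.4 CPM on the right. ZPLD1 was the one member whose mean did not rise from E5 to E6.5 on either side. It stood at 0.376 to 1.31 CPM over the 6 libraries at E6.5, within its E5 range of 0.265 to 1.85 CPM, and reached 5.67 to 7.78 CPM on the left and 7.03 to 8.47 CPM on the right at E8 (log2 3.49 ± 0.44 and 3.16 ± 0.42, adjusted p = 2.0e-05 and 4.4e-05).

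Among the membrane proteins, EMB had the most reads of the set. It encodes embigin, a partner of monocarboxylate transporters at the cell surface. It stood at 163, 170 and 117 CPM on the left at E6.5 and at 752, 780 and 735 CPM at E8, and on the right at 189, 195 and 157 CPM and then at 914, 1007 and 1240 CPM. The rise was log2 2.36 ± 0.13 on the left and 2.60 ± 0.13 on the right (adjusted p = 1.5e-09 and 3.0e-10). SLC27A6, a fatty acid transporter, rose by 2.05 ± 0.21 and 2.16 ± 0.21, and SLCO1A2, an organic anion transporter, by 1.78 ± 0.36 and 1.30 ± 0.35. CLDN2, a tight junction protein, rose by 2.82 ± 0.63 and 2.50 ± 0.59 (adjusted p = 0.0041 and 0.0057).

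RGS5, a G protein regulator known from pericytes, rose by log2 2.11 ± 0.27 on the left and 1.35 ± 0.26 on the right. The pericyte receptor gene PDGFRB stood at 85.5 to 134 CPM at E6.5 and 87.6 to 148 CPM at E8, and the part of pericytes in the RGS5 level was not tested. ACKR4, a scavenging receptor for chemokines, rose by 2.03 ± 0.40 and 1.29 ± 0.39. In the RefSeq order 2 genes lie between ACKR4 and ACPP, an acid phosphatase, and ACPP rose by 1.63 ± 0.32 and 1.2 ± 0.32. SGPP2, a sphingosine-1-phosphate phosphatase, rose by 2.44 ± 0.38 and 1.58 ± 0.37. BRDT, a bromodomain protein of germ cell chromatin in mammals, rose from 2.94, 2.63 and 1.35 to 20.7, 25.4 and 20.9 CPM on the left and from 2.87, 3.0 and 4.14 to 25.2, 28.3 and 28.1 CPM on the right. The sides overlapped for BRDT at both stages (log2 -0.57 ± 0.37 and -0.34 ± 0.32). The germ cell gene DDX4 did not overlap, at 77.3 to 95.9 CPM on the left and 28.7 to 37.0 CPM on the right at E8, and the summed level of 26 germ cell genes was 951 to 1301 CPM against 498 to 615 CPM. At E9.5 all left libraries lay above all right ones for BRDT, with a ratio of the means of 1.35. DDX4 stood at E9.5 at 80.2 to 104 CPM on the left and 45.8 to 53.2 CPM on the right. The part of germ cells in the BRDT level was not tested.

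Few members were called between the sides, but at E6.5 their share called higher on the left was above that of all genes in the main fit. At E6.5, 5 of the 35 stood higher on the left by the test (14.3%), with none lower, beside 2.67% and 0.575% of all genes tested. Of these 5 calls, 3 (GRP, MCTP1 and MYOZ2) were lost in at least 1 alternative setting. With only the compared libraries fitted, 2 remained, and GRP was not tested. The share of all genes called is not given for that fit, so the members can be set beside it only in the main fit. Without overlap between the libraries, 7 stood higher and 2 lower on the left, beside 9.92% and 5.21% of all genes. At E8, 2 were higher on the left and 2 lower (5.71% each), beside 7.54% and 6.71%, and the libraries did not overlap for 4 and 7 members, beside 21.9% and 17.0%. The members' median log2 difference, left over right, was -0.04 at E6.5 and -0.13 at E8. At E9.5 the ratio of the means was under 2-fold for 32 of the 35, and the exceptions were LOC422926, MYOZ2 and SPON2. The rule asked for a rise on each side and was set on these E9.5 libraries, so nothing is read from that count.

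**Figure D3:**
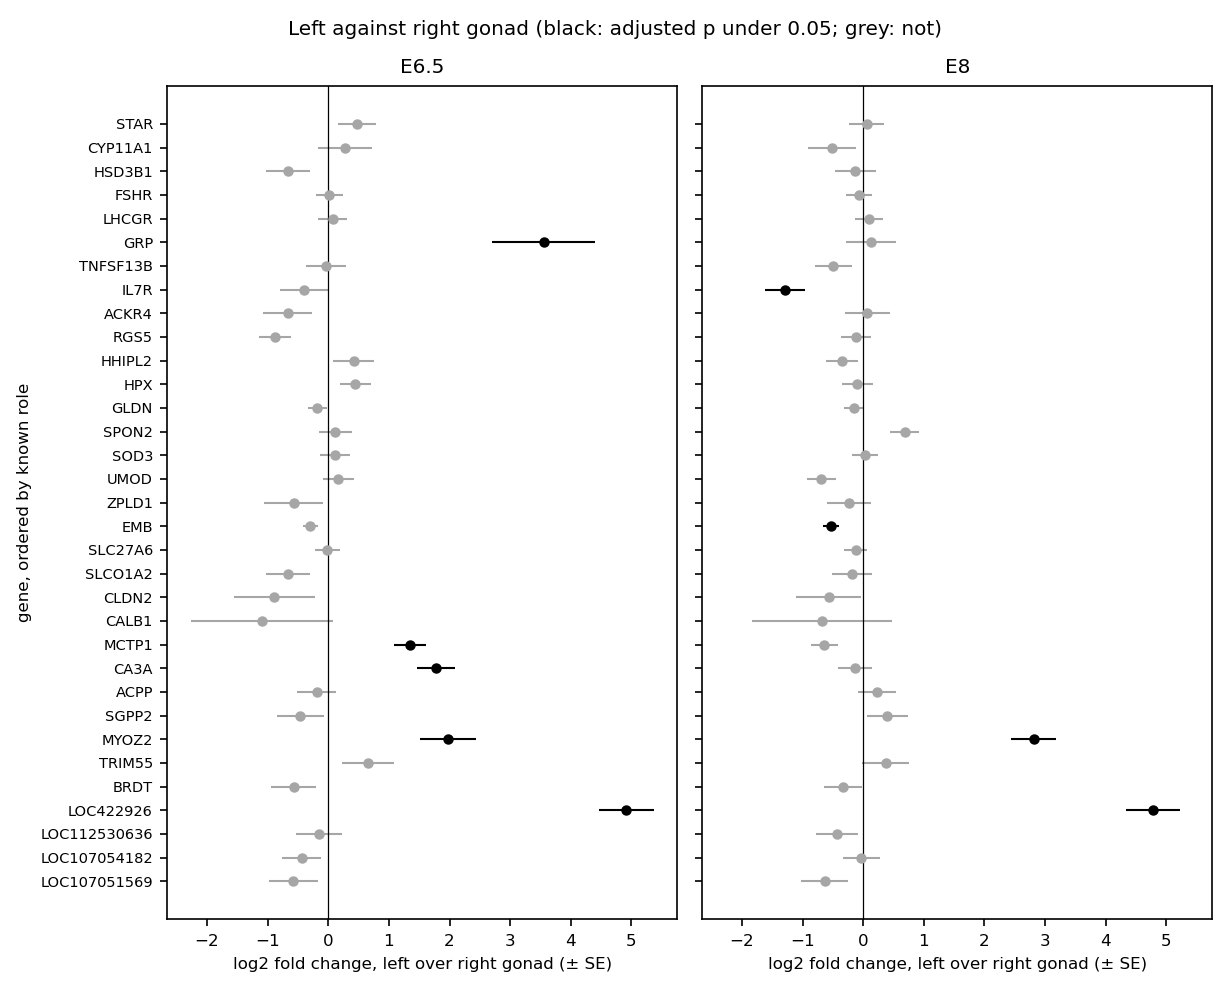
Points give the fitted log2 fold change of the left over the right gonad for each of 33 of the 35 genes at E6.5 (left panel) and E8 (right panel), in black where the adjusted p was under 0.05. Bars are 1 SE from the fit over all 24 libraries, with 3 libraries a side compared. LOC422926 stands at 4.91 and 4.79 and MYOZ2 at 1.97 and 2.81, while GRP, CA3A and MCTP1 pass at E6.5 and not at E8.

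LOC422926, a protein-coding gene with no name in the table, was by far the most left-sided member. It stood at 18.6, 44.9 and 33.1 CPM in the left gonad at E5, at 293, 503 and 627 CPM at E6.5, at 1423, 1822 and 1263 CPM at E8 and at 1057, 1370 and 1443 CPM at E9.5. In the right gonad it stood at 1.55, 1.38 and 0.332 CPM, then 17.6, 9.19 and 19.2 CPM, then 50.6, 54.1 and 52.7 CPM, and then 76.8, 90.7 and 242 CPM. All left libraries lay above all right ones at each stage, and the left mean was 29.6, 31.0, 28.6 and 9.45 times the right mean at the 4 stages. The last ratio rests on E9.5 right replicate 3 and was 15.4 without it. The difference passed at E6.5 (log2 4.91 ± 0.46, adjusted p = 2.9e-06) and at E8 (4.79 ± 0.45, adjusted p = 1.0e-06). It rose on both sides between the stages, by 1.69 ± 0.39 on the left and 1.82 ± 0.41 on the right.

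MYOZ2, which encodes a calcineurin-binding protein of the muscle Z-disc, was also left-sided. It stood at 1.16, 1.38 and 3.82 CPM on the left at E6.5 and 0.374, 0.319 and 0.892 CPM on the right, at 33.0, 27.9 and 21.8 CPM and 2.68, 3.61 and 5.05 CPM at E8, and at 55.7, 55.6 and 38.6 CPM and 10.1, 13.1 and 9.12 CPM at E9.5. The sides overlapped at none of the stages, and the difference was log2 1.97 ± 0.47 at E6.5 (adjusted p = 0.022) and 2.81 ± 0.37 at E8 (adjusted p = 5.0e-05). The highest E6.5 value came from left replicate 3, the library with muscle transcripts, and without it the E6.5 difference was 1.21 and did not pass (adjusted p = 0.17). The call was also lost without right replicate 1 or right replicate 2 (adjusted p = 0.11 and 0.098). At E8 the muscle genes MYL1, TNNC2 and TNNT2 were at 0.0603 to 3.43, 0.603 to 3.03 and 0 to 2.80 CPM on the left, with the lowest values of all 3 in left replicate 1, where MYOZ2 was highest. The skeletal muscle actin gene ACTA1 went the other way, at 13.2, 10.8 and 12.4 CPM on the left. On the right ACTA1 stood at 7.91, 9.97 and 9.88 CPM, below all left libraries. The summed level of 19 muscle genes was 655 to 674 CPM on the left and 647 to 711 CPM on the right. The smooth muscle actin gene ACTA2 alone gave 312 to 322 and 306 to 349 CPM of it, so the sum says little about sarcomere genes. The part of muscle in the MYOZ2 level was not tested. TRIM55, another sarcomere protein, stood at 8.50, 9.25 and 7.61 CPM on the left at E8 and 7.02, 6.6 and 5.22 CPM on the right and did not pass (log2 0.37 ± 0.39, adjusted p = 0.57).

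MCTP1, CA3A and GRP were called higher on the left at E6.5 and not at E8, and of the 3 the change between the stages differed by the test for MCTP1 alone. MCTP1, a calcium-binding membrane protein, stood at 10.4, 13 and 11.1 CPM on the left at E6.5 and at 3.74, 5.11 and 4.40 CPM on the right (log2 1.35 ± 0.26, adjusted p = 0.0052). At E8 the order was turned, with 50.5, 55.1 and 37.0 CPM on the left and 68.8, 81.7 and 63.7 CPM on the right and no overlap (-0.64 ± 0.23, adjusted p = 0.063), and at E9.5 the right was again higher, at 132, 98.4 and 90.0 against 88.6, 88.6 and 65.3 CPM. Its rise between the stages was thus smaller on the left, 2.08 ± 0.24, than on the right, 4.07 ± 0.27. The difference between these changes was -1.99 ± 0.34 (adjusted p = 0.016), the only one among the members to pass, beside 0.0599% of all genes with a smaller and 0.0958% with a larger change on the left. The value kept its sign in 22 alternative settings, between -2.09 and -1.73, but missed the threshold in 7 of them, among them without E6.5 left replicate 2, E6.5 right replicate 1, E8 left replicate 3 or E8 right replicate 2 (adjusted p = 0.055, 0.063, 0.052 and 0.056).

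CA3A, a carbonic anhydrase, stood at 13.5, 12.1 and 12.6 CPM on the left at E6.5 and 4.05, 3.96 and 2.93 CPM on the right (log2 1.78 ± 0.31, adjusted p = 0.0022). At E8 the sides overlapped, at 33.3, 22.7 and 17.3 CPM and 24.6, 27.6 and 25.5 CPM. The difference between its changes, -1.91 ± 0.42, did not pass (adjusted p = 0.080). For GRP the ratio of left to right CPM at E6.5 was 13.3, with a 95% exact counting interval of 4.24 to 66.9, and it passed (adjusted p = 0.025) but lost the call in 5 of 15 alternative settings, among them without left replicate 2, right replicate 1 or right replicate 3 (adjusted p = 0.14, 0.11 and 0.14). With only the compared libraries fitted, the filter on low counts removed GRP and it was not tested. The difference between its changes, -3.43 ± 0.97, did not pass (adjusted p = 0.23), and its size depends on the prior count, since the right E6.5 group holds 3 counts.

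On the right side, 2 members were higher at E8. IL7R, the receptor of the lymphoid cytokine interleukin 7, stood at 4.28, 3.40 and 3.26 CPM on the left and at 8.92, 8.91 and 7.96 CPM on the right (log2 -1.29 ± 0.33, adjusted p = 0.013). At E9.5 the sides overlapped, at 11.5, 8.93 and 6.44 CPM and 13.6, 9.71 and 7.18 CPM. The lymphoid genes CD3E, PAX5 and RAG1 were at 1.33 to 2.27, 0.229 to 0.755 and 0.0572 to 0.378 CPM on the left at E8 and at 0.714 to 1.56, 0.274 to 0.416 and 0 CPM on the right. The summed level of 18 lymphoid and thrombocyte genes other than IL7R overlapped, at 114 to 149 and 134 to 157 CPM. Of the 14 of them that were tested, none was higher and 1 was lower on the left at E8. It was ITGA2B, an integrin gene of thrombocytes, named after its values were seen, at 13.8, 16 and 13.7 CPM on the left and 26.8, 34.9 and 28.6 CPM on the right (log2 -1.10 ± 0.25, adjusted p = 0.0067). The part of lymphoid cells and thrombocytes in the IL7R level was not tested. EMB was the other, by log2 -0.53 ± 0.12 (adjusted p = 0.0079). The IL7R call was lost without left replicate 2 or left replicate 3 (adjusted p = 0.056 and 0.059), the EMB call without right replicate 3 (0.068), and both were lost with the adrenal list as a covariate (0.52 and 0.45), a list whose level itself differed between the sides at E8 without overlap, so that side and adrenal tissue cannot be told apart in that fit.

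SPON2 had a higher mean on the left at E8 and E9.5, but it did not pass at E8 and was not tested at E9.5. It overlapped at E6.5, at 7.41, 4.64 and 3.60 CPM on the left and 6.67, 3.83 and 3.63 CPM on the right. At E8 it stood at 56.7, 60.3 and 51.6 CPM and 32.8, 34.9 and 33.3 CPM, without overlap, and the difference missed the threshold (log2 0.69 ± 0.24, adjusted p = 0.057). At E9.5 it stood at 117, 86.8 and 69.5 CPM on the left and 40.1, 25.7 and 30.3 CPM on the right, a ratio of the means of 2.85. From E8 to E9.5 the mean went from 56.2 to 91.2 CPM on the left and from 33.7 to 32.1 CPM on the right.

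**Figure D4:**
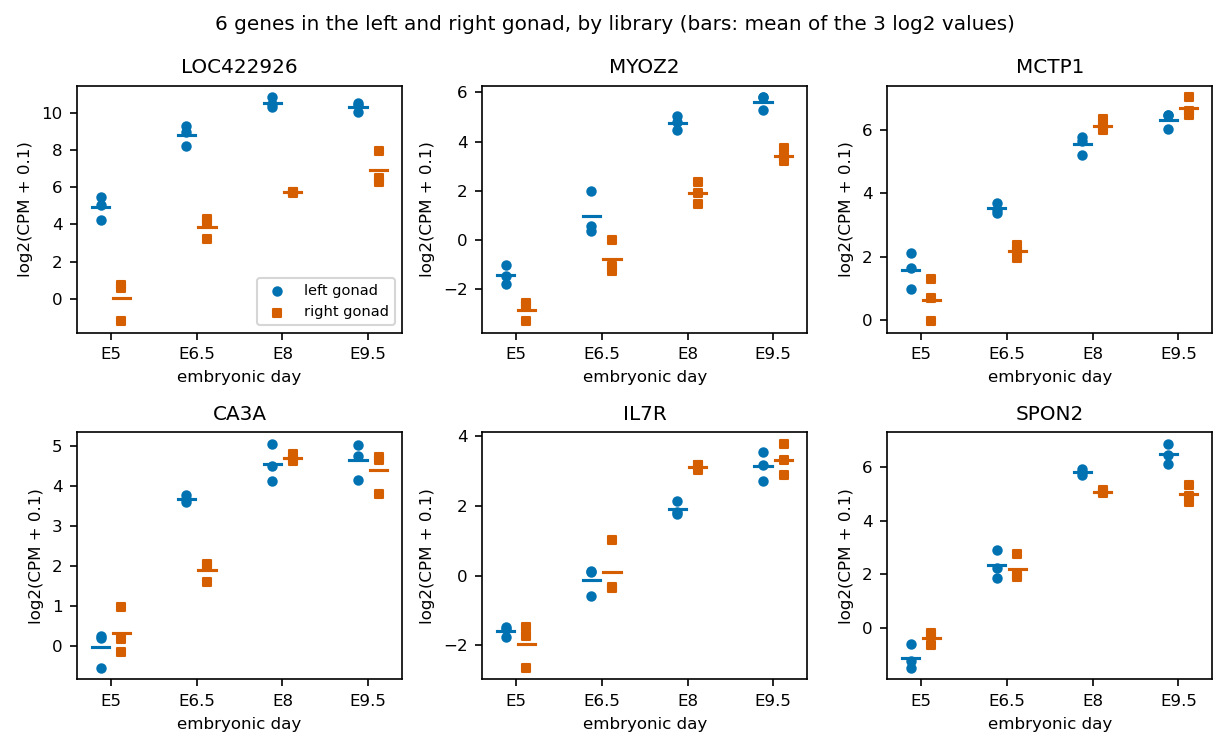
Each point is 1 library, with log2(CPM + 0.1) on the vertical axis, the 4 stages on the horizontal axis, circles for the left and squares for the right gonad, and bars for the mean of the 3 log2 values. LOC422926 and MYOZ2 are higher on the left at every stage, MCTP1 and CA3A lead on the left at E6.5, IL7R is higher on the right at E8, and SPON2 is higher on the left at E8 and E9.5.

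CALB1 varied beside a marker of the mesonephros. CALB1 encodes calbindin, a calcium buffer that is abundant in the kidney tubule. It stood at 68.6, 0.314 and 7.42 CPM on the left and 44.4, 4.85 and 110 CPM on the right at E6.5, and at 175, 23.5 and 20.0 CPM on the right at E8. CUBN stood in the same libraries at 225, 8.78 and 32.6 CPM, at 179, 95.0 and 786 CPM, and at 474, 242 and 67.9 CPM. The 3 libraries of a group came in the same order for CALB1 and CUBN in 5 of the 8 groups. The spread was so wide that CALB1 passed no test, with log2 changes of 0.92 ± 1.17 on the left and 0.51 ± 1.15 on the right from E6.5 to E8 (adjusted p = 0.63 and 0.80).

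CALB1 was less uneven in the left gonad at the later stages. It stood there at 61.1, 30.4 and 51.8 CPM at E8 and 131, 141 and 99.6 CPM at E9.5, where CUBN was at 27.4, 55.9 and 56.0 and at 19.1, 69.3 and 12.2 CPM. In the right gonad at E9.5 CALB1 stood at 24.9, 354 and 56.2 CPM and CUBN at 115, 444 and 280 CPM. The summed level of 56 mesonephros genes other than members was 750 to 1389 CPM on the left and 2494 to 8677 CPM on the right at E9.5. The part of mesonephros in the CALB1 values was not tested.

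UMOD, a kidney gene in mammals, stood at E8 at 64.0 to 76.3 CPM on the left and 105 to 120 CPM on the right, where mean CUBN was 46.4 and 261 CPM. At E9.5 it stood at 54.9 to 70.6 CPM on the left and 56.7 to 74.4 CPM on the right, where mean CUBN was 33.5 and 280 CPM. UMOD thus overlapped between the sides at E9.5 and not at E8, and the part of mesonephros in its levels was not tested.

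**Figure D5:**
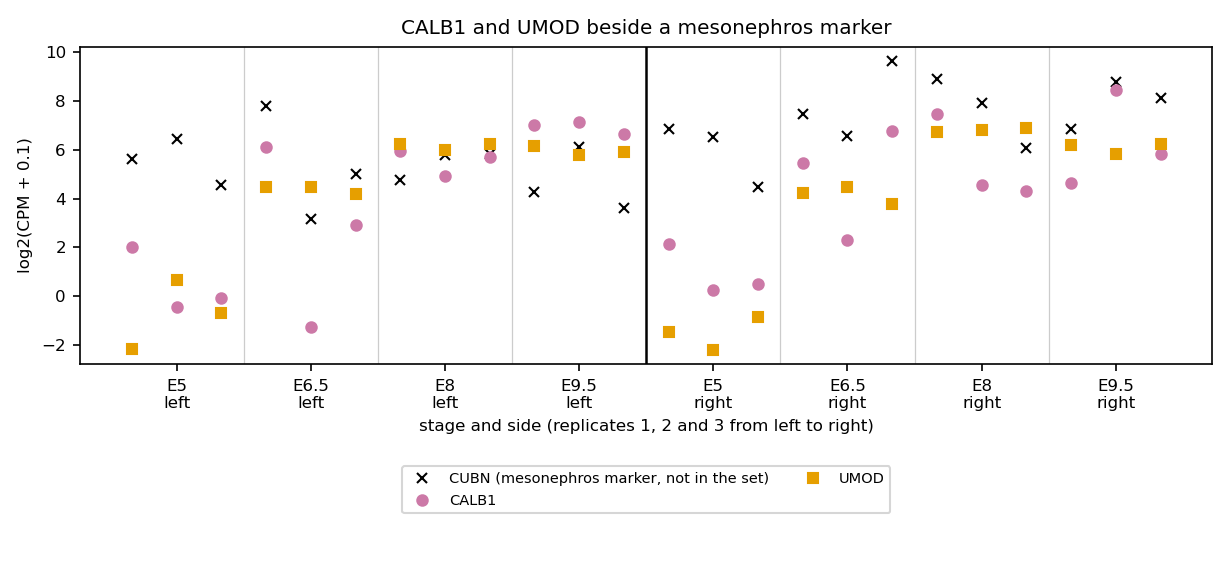
Points give log2(CPM + 0.1) in each of the 24 libraries for CALB1 and UMOD and for CUBN, a mesonephros marker that is no member, with the left gonads on the left. CALB1 swings with CUBN at E6.5 and on the right at E8 and E9.5, while UMOD stays level within each group from E6.5 onward.

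Of the 3 other LOC genes, LOC112530636 and LOC107054182 rose on both sides. LOC112530636, a long non-coding RNA in the RefSeq table, stood between 1.57 and 5.49 CPM over the 6 libraries at E6.5 and between 11.2 and 20.2 CPM at E8 (log2 2.05 ± 0.37 left, 2.33 ± 0.37 right). LOC107054182, which the RefSeq table does not hold, rose by 1.40 ± 0.32 and 0.99 ± 0.31. LOC107051569, another long non-coding RNA, stood at 1.07 to 5.42 CPM at E6.5 and 2.65 to 6.64 CPM at E8 with overlap on both sides, and did not pass (adjusted p = 0.40 and 0.33). It reached 7.19 to 17.6 CPM at E9.5.

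Within groups, the members' median coefficient of variation over 3 libraries was 40.8% (left) and 47.1% (right) at E5, 33.1% and 24.5% at E6.5, 15.7% and 15.1% at E8, and 14.6% and 24.1% at E9.5. At E5 many members rest on few reads. MYOZ2 and GRP had 2 counts each, and TRIM55 had 3, over the 3 right E5 libraries together.

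Among the members nearest to the fold of 16 were CA3A at 16.4 and ZPLD1 at 16.7, taking the smaller of the 2 sides. Just outside lay the carbonic anhydrase gene CA4 at 15.9, the hormone gene AMH at 15.8, RBP7 at 15 and RHAG at 14.7. Nearest to the level of 5 CPM were TRIM55 and IL7R at 8.94, LOC107051569 at 9.63 and MYOZ2 at 10.8 CPM, and just outside lay LOC107054264 at 4.87, LOC107054183 at 4.59, CCKAR at 3.36 and LOC112533338 at 2.44 CPM. Leaving out each of the 12 E5 and E9.5 libraries in turn, 30 members met the rule every time, and ZPLD1, ACPP and CA3A were among the 5 that dropped out at least once.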

How the data were processed

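The authors deposited read counts per gene for the 24 libraries, whole numbers that were not normalized. Per the submitters' processing notes, Trim Galore 0.6.7, STAR 2.7.10a, HTSeq 2.0.0 and the build GRCg6a were used. Strand setting and counting mode: not given in the sources used here. Members, gene lists and tests were chosen with earlier results of these data known, so no list is independent support. Raw CPM chose and describes the members. The tests used edgeR 4.0.16 in R 4.3.3 with limma 3.58.1. Its filterByExpr left 16694 genes, all 35 members among them, TMM factors scaled the libraries, and a quasi-likelihood fit over all 24 libraries, with 8 group means, gave 5 contrasts (E8 against E6.5 on each side, left against right at E6.5 and at E8, and the difference of the changes). P-values were adjusted over all tested genes by Benjamini and Hochberg, with a threshold of 0.05. Standard errors (SE) were taken from the F statistic and the log2 change. The common biological coefficient of variation was 0.212. Replicate libraries differed by more than counting noise in all 24 pairs (chi-square over its degrees of freedom 7.91 to 58.1), so none was merged. Named members are the 10 with most reads at E9.5, up to 8 per contrast and direction, the 6 with the largest ratios between the sides at E9.5, list members, those with onset at E6.5 and those next to a threshold; the remaining members were named after their values were seen. Gene names and gene order come from the RefSeq table of GRCg7b, which matched 34 members by symbol. The test was checked on simulated data. DESeq2 1.42.0, median-ratio size factors, no filter, a replicate block, covariates and left-out libraries were the alternatives. The values of 2 of the 35 members are not reported here, but both stay in every fit and count.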

Additional observations from a re-analysis of the deposited data

Results flagged for a closer look

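The change of MCTP1 from E6.5 to E8 differed between the gonads by -1.99 on the log2 scale, left minus right (SE 0.34, edgeR adjusted p = 0.016). It rose in both gonads, from 11.5 to 47.5 CPM on the left and from 4.41 to 71.4 CPM on the right in the mean of 3 libraries, so that the left was higher at E6.5 and the right at E8. The call on the difference was lost in 7 of 22 alternative settings, 4 of them each without 1 library, and the lead of the right at E8 did not pass on its own (log2 -0.64 ± 0.23, adjusted p = 0.063).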

How the results depend on the processing

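No member's call turned in sign under any setting, and of the 33 and 32 members called higher at E8, 26 on the left and 28 on the right kept the call in every setting. Without each compared library in turn the count ran from 31 to 33 on the left and from 28 to 31 on the right. Between the sides the counts were less stable. At E6.5 the members higher on the left numbered 2 with only the compared libraries fitted and 3 to 5 without single libraries (3 without right replicate 1), and those lower numbered 1 with DESeq2 or with the adrenal list (with or without its members) as a covariate and 0 to 1 without single libraries. At E8 the members lower on the left numbered 5 with the replicate block, 6 with only the compared libraries and 4 with DESeq2. They numbered 3 with either mesonephros covariate, 0 with either adrenal covariate and 1 to 2 without single libraries. The 2 higher were called throughout. The count of those higher was 3 with median-ratio size factors, the replicate block, any of these covariates, only the compared libraries or DESeq2. For the difference of the changes the 1 member, MCTP1, became 2 with the replicate block, either mesonephros covariate, only the compared libraries or DESeq2, and 0 with either adrenal covariate, without the 2 libraries with liver transcripts, and without E6.5 left replicate 2, E6.5 right replicate 1, E8 left replicate 3 or E8 right replicate 2 (0 to 1 over single libraries). The cause was not tested. The covariates without members were added after seeing the data. Same-numbered left and right libraries had correlated deviations of 0.35, 0.36 and 0.52 at E5, 0.28, 0.42 and 0.31 at E9.5, -0.16, 0.53 and 0.12 at E6.5 and -0.02, 0.13 and 0.04 at E8. Left and right libraries with different numbers had -0.35 to 0.04 at E5 and -0.28 to -0.01 at E9.5, below all same-numbered pairs. At E6.5 they had -0.54 to 0.41 and at E8 -0.10 to 0.03, overlapping the same-numbered pairs. Not every same-numbered pair passed 0.1 at the stages tested and the labels do not say what the number marks, so the numbers were not taken as a pairing. A pairing is thus possible, and the main tests between the sides do not use it. The set numbered 65 with a fold of 8, 19 with a fold of 32 and 33 to 37 without single libraries. Onset at E6.5 on both sides held for 5 members and at E9.5 for 1 with 25% of the E9.5 mean as the mark, and with 1 CPM as the mark onset was E6.5 for 30, E8 for 2 and different for 3; without single libraries the counts were 12 to 15 (E6.5), 14 to 16 (E8) and 4 to 9 (different). Counts of 3 or fewer per group at E5 limit the folds of GRP, MYOZ2 and TRIM55.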
